A study of Mus musculus with 10 samples.

Results

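The kinesin motor family was taken as every gene row whose symbol begins with Kif or Kifc followed by a digit, together with Kifap3, the associated subunit of the heterotrimeric ciliary kinesin. This gave 43 of 23420 gene rows, of which 41 had enough counts to be tested among 15265 tested genes. Libraries labelled Ino80cKO came from mice in which Ino80, the ATPase of a chromatin remodelling complex, had been deleted with Stra8-Cre, a transgene that recombines floxed DNA in male germ cells from the spermatogonial stage, so that somatic cells of the testis keep the gene. Libraries labelled Ino80WT were the controls, and their alleles are not detailed further in the sources used here. Each group held 5 libraries of polyA RNA from enzymatically dissociated, mesh-filtered testis cells at postnatal day 18, from animals of mixed background. The comparison asks how kinesin transcripts differ between Ino80cKO and Ino80WT preparations of cells that the labels call spermatogenic.

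Kinesins are ATP-driven motors that walk along, or take apart, microtubules. Spindle kinesins build and position the mitotic and meiotic spindles and the midbody, transport kinesins move organelles and vesicles, and ciliary kinesins carry cargo along the axoneme or regulate its length and beat. In the testis, dividing spermatogonia and spermatocytes use the spindle motors. Spermatocytes and spermatids make many parts of the future sperm flagellum, and Sertoli cells rely on transport along parallel microtubules. Members were grouped by these known roles into 15 spindle and midbody genes, 10 cilium and flagellum genes and 17 transport genes. Kif4-ps, a transcribed pseudogene, stood apart.

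Total gene counts ran from 19036178 to 23498321 per Ino80cKO library and from 16750609 to 23700094 per Ino80WT library, and kinesin counts from 56952 to 71083 per Ino80cKO library and from 44739 to 74027 per Ino80WT library. Levels are CPM, counts scaled to a common library size with TMM factors, given as mean ± SD (n = 5 libraries each). Changes are log2 fold changes of Ino80cKO over Ino80WT ± SE from edgeR's quasi-likelihood test, called at a Benjamini-Hochberg adjusted p below 0.05 over all tested genes. Whether each library came from its own animal is not stated, so a p-value here reflects variation among libraries that may be technical. Ino80 itself stood at 94.4, 94.7, 96.9, 97.4 and 96.7 CPM in Ino80cKO libraries 1 to 5, against 75.8, 101, 110.1, 93.0 and 94.7 CPM in Ino80WT libraries 1 to 5. The Ino80cKO libraries lay inside the Ino80WT range (96.0 ± 1.37 CPM in Ino80cKO and 94.9 ± 12.6 CPM in Ino80WT), with a log2 fold change of 0.02 ± 0.09 (adjusted p = 0.889). The deleted exons are not named, so a count over the whole gene checks no label. The cells were not germ cells alone, since the Sertoli marker Clu stood at 2846 ± 333 CPM in Ino80cKO and 2161 ± 382 CPM in Ino80WT. Of 8 spermatid markers, Prm1, Prm2 and Tnp2 were at 0 counts in every library, and Tnp1 and Acrv1 were too low to test. Dkkl1 was at 66.9 ± 18.97 CPM in Ino80cKO and 209 ± 54.6 CPM in Ino80WT (log2 fold change -1.64 ± 0.21, adjusted p = 0.000138), Actl7b at 8.36 ± 2.76 CPM in Ino80cKO and 28.9 ± 10.9 CPM in Ino80WT (log2 fold change -1.79 ± 0.28, adjusted p = 0.000355), and Spaca1, with no call, at 6.06 ± 0.497 CPM in Ino80cKO and 6.06 ± 0.871 CPM in Ino80WT.

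Kinesin transcripts of the cilium and flagellum fell in Ino80cKO, spindle kinesins split between a fall and no call, and transport kinesins mostly had no call or rose. Of the 41 tested members, 20 were called, beside 45.9% of all tested genes. Of these, 16 were lower and 4 higher, where 27.6% of all tested genes were lower and 18.3% higher. By class, 8 of 10 cilium and flagellum members were lower and 0 higher. Of 14 tested spindle and midbody members, 6 were lower and 1 higher. Among 16 tested transport members, 1 was lower and 3 were higher. Kif4-ps was lower. The median log2 fold change was -0.66 in the cilium and flagellum class, -0.18 in the spindle and midbody class and 0.16 in the transport class, beside 0.02 over all tested genes. In the cilium and flagellum class the count of 0 higher also held at an unadjusted p below 0.05 (0 genes) and with DESeq2 (0 genes). Under scaling by library totals, which moves the median of all genes to 0.19, Kif7 was called higher, and the family had 13 higher and 13 lower members.

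**Figure D1:**
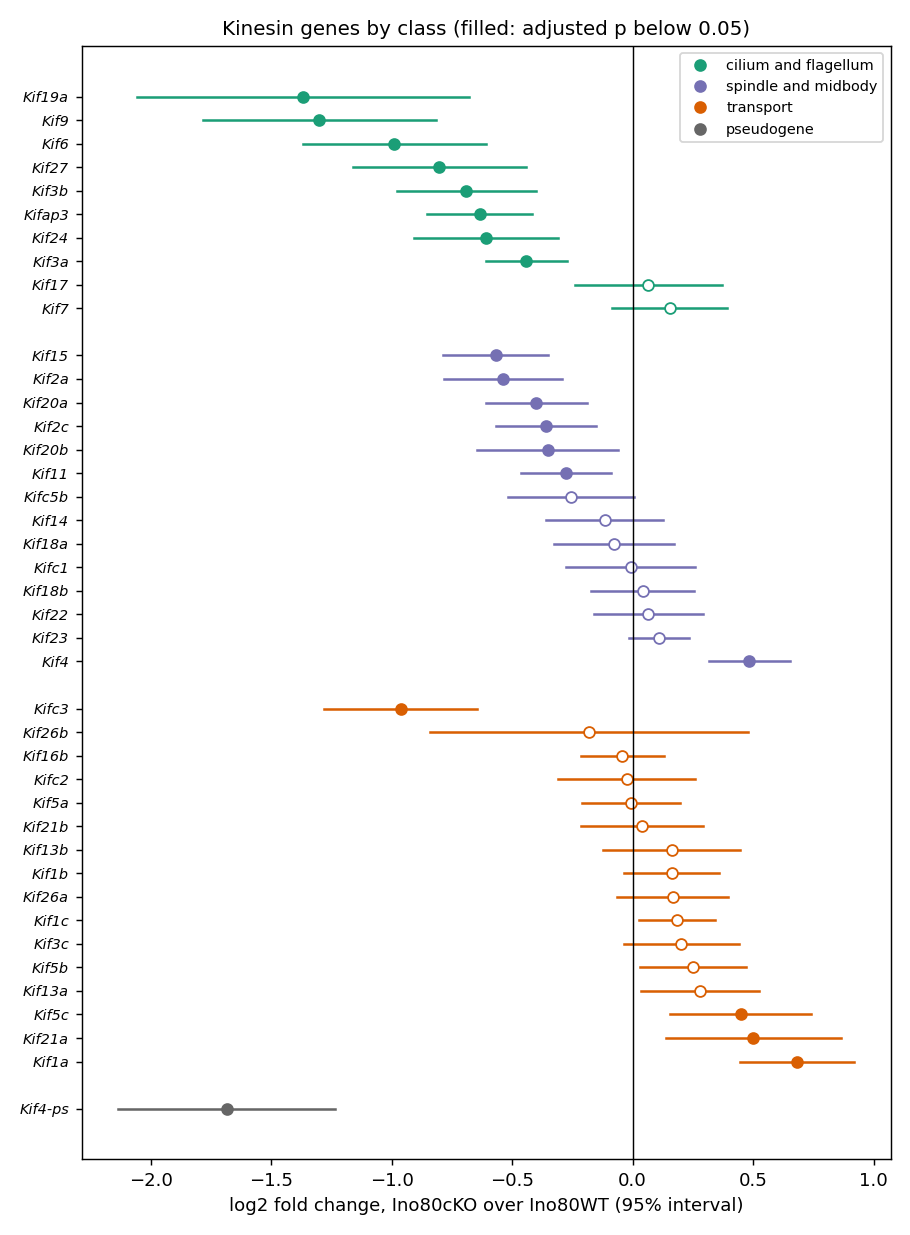
Log2 fold change (x axis, Ino80cKO over Ino80WT) of each of the 41 tested kinesin genes with its 95% interval, grouped and coloured by class. Filled points passed the adjusted p of 0.05. Cilium and flagellum genes lie mostly left of 0, with Kif7 and Kif17 as the open points, while transport genes lie near or right of 0 except Kifc3.

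The share of all gene counts that came from kinesins overlapped between the groups, while the shares of the cilium and transport classes within it did not. Kinesin counts were 0.295% to 0.304% of gene counts in Ino80cKO libraries and 0.267% to 0.312% in Ino80WT libraries. Within these kinesin counts the cilium and flagellum class took 17.2% to 20.4% in Ino80cKO and 23.6% to 31.5% in Ino80WT, so the groups did not overlap. The transport class took 41.1% to 51.4% in Ino80cKO and 28.8% to 39.2% in Ino80WT, again without overlap. The spindle and midbody class overlapped, at 31.2% to 38.6% in Ino80cKO and 36.0% to 38.6% in Ino80WT. These shares compare genes within a library and so do not depend on the scaling between libraries. No test was made on them, and longer transcripts weigh more in them. They are parts of a whole, so a lower share of any class raises those of the others. In summed CPM the transport class overlapped, at 1163 to 1477 CPM in Ino80cKO and 1006 to 1173 CPM in Ino80WT. The cilium and flagellum class did not, at 494 to 570 CPM in Ino80cKO and 706 to 1100 CPM in Ino80WT.

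**Figure D2:**
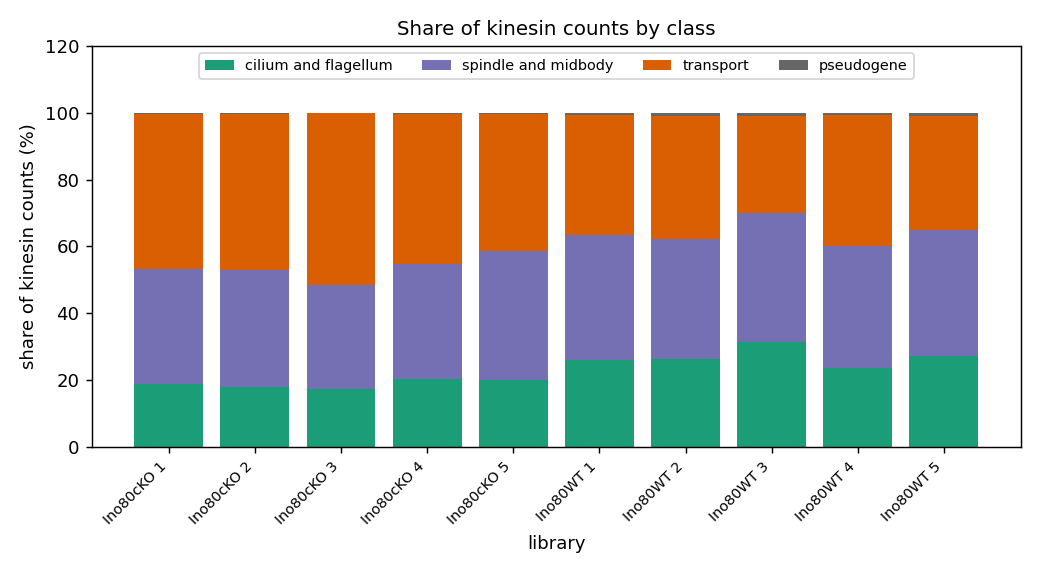
Share of each library's kinesin counts (y axis, percent) taken by each class, for the 5 Ino80cKO libraries on the left and the 5 Ino80WT libraries on the right. The cilium and flagellum share lies at or below 20.4% in all Ino80cKO libraries and at or above 23.6% in all Ino80WT libraries.

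Per kilobase of annotated exon, the levels of the most abundant members were ordered differently in the groups. In Ino80cKO, Kif5b led at 44.9 CPM per kilobase, followed by Kif3a at 38.4, Kif21a at 35.7, Kif20a at 30.5 and Kif2a at 23.1. In Ino80WT, Kif3a led at 52.1 CPM per kilobase, followed by Kif20a at 40.2, Kif5b at 37.8, Kif3b at 34.9 and Kif2a at 33.6. Of these, Kif3a and Kif3b drive transport into cilia, Kif20a acts in cytokinesis, Kif2a takes microtubules apart at spindle poles, and Kif5b is the ubiquitous heavy chain of conventional kinesin. Kif9 ranked 12 in Ino80cKO and 6 in Ino80WT. At the other end, Kif12 had 0 counts in the 5 Ino80cKO libraries and 1 in the 5 Ino80WT libraries, and Kif2b, a testis-enriched microtubule depolymerase, had 45 counts in Ino80cKO and 43 in Ino80WT. Neither was tested. Kif26b, with 75 counts in each group, was the lowest member that was tested.

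The heterotrimeric kinesin that drives intraflagellar transport had all its subunits lower. Kif3a, a motor subunit, stood at 133, 138, 136, 132 and 148 CPM in Ino80cKO libraries 1 to 5, against 209, 175, 198, 162 and 189.6 CPM in Ino80WT libraries 1 to 5. Every Ino80cKO library lay below every Ino80WT library, a 1.36-fold fall with a log2 fold change of -0.44 ± 0.08 (adjusted p = 0.000722). Kif3b, its motor partner, stood at 117, 116, 127, 131 and 119.6 CPM in Ino80cKO libraries 1 to 5, against 148, 195, 269.6, 166 and 205 CPM in Ino80WT libraries 1 to 5. The groups did not overlap, the Ino80cKO libraries lay close together, and Ino80WT 3 was the highest. The log2 fold change was -0.69 ± 0.13 (adjusted p = 0.00142). Kifap3, the non-motor subunit that links the motors to cargo, stood at 77.6, 73.3, 62.7, 76.5 and 76.5 CPM in Ino80cKO libraries 1 to 5, against 109.5, 109, 134, 92.4 and 125 CPM in Ino80WT libraries 1 to 5. It was again lower in every Ino80cKO library, with Ino80cKO 3 lowest (log2 fold change -0.63 ± 0.10, adjusted p = 0.000367). The share of all tested genes that did not overlap with Ino80cKO below was 22.0%.

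The proportions between these subunits did not pass a test. The permutation tests used log2 ratios, while the means and SDs are of the plain ratios. Per kilobase, the ratio of Kif3a to Kif3b was 1.78 ± 0.143 in Ino80cKO and 1.55 ± 0.398 in Ino80WT (exact two-sided permutation test over libraries, p = 0.206). That of Kifap3 to Kif3b was 0.847 ± 0.0958 in Ino80cKO and 0.830 ± 0.129 in Ino80WT (exact permutation p = 0.802). The ratio of Kifap3 to Kif3a was 0.477 ± 0.0448 in Ino80cKO and 0.544 ± 0.0556 in Ino80WT (exact permutation p = 0.0952). Adjusted over these 3 ratios, p was 0.310, 0.802 and 0.286 by the same exact test, which can give no p below 0.00794. The ratio of Kif17 to Kif3b was put through the same test but left out of this adjustment, and its result is not given here.

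The 100 bases upstream of 1 RefSeq start of each subunit gene, and of the X-linked spindle gene Kif4 described further on, are shown. They were chosen because these members moved together or apart. The windows of Kif3a and Kifap3 lie inside the annotated genes, which begin at positions 53565701 and 163762138. That of Kif3b runs across its gene start at 153291395. Coordinates are GRCm38.p6, the assembly of mm10, and letters run 5′ to 3′ on the gene's strand. Capitals mark matches on either strand to the CHR element of cell-cycle genes (TTTGAA or TTCGAA), the CCAAT box, an RFX-type core (GTTGCC), a MYB site (AACTGNC) or a cAMP-response core (TGACG).
Kif3a, chr11:53567269-53567368, plus strand: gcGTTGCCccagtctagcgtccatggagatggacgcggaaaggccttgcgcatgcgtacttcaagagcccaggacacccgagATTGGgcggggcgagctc
Kif3b, chr2:153291316-153291415, plus strand: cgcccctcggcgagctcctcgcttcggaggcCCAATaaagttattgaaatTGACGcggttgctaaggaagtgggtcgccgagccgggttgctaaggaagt
Kifap3, chr1:163779483-163779582, plus strand: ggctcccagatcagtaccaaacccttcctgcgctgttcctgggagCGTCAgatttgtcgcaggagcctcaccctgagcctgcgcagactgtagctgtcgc
Kif4, chrX:100625965-100626064, plus strand: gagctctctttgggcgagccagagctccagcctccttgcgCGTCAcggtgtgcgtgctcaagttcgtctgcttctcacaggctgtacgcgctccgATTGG
In the 250 bases upstream, which were searched for 34 members with a RefSeq window, CCAAT stood in 6 of 9 cilium and flagellum genes, 9 of 14 spindle and midbody genes and 2 of 11 transport genes, against 37.5% of 27025 genes. GTTGCC stood in 4 of 9, 2 of 14 and 2 of 11, against 11.8%. TTTGAA stood in 1 of 9, 5 of 14 and 2 of 11, against 18.3%, and TTCGAA in 1, 0 and 0, against 1.55%. TGACG stood in 4 of 9, 8 of 14 and 4 of 11, against 19.8%, and AACTGNC in 1, 0 and 2, against 12.1%. A gene with more than 1 window counted if any of them held the motif, so such genes could be searched over more bases. The motifs were counted separately and the matches can overlap. They describe letters, not binding.

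Members tied to motile cilia and flagella also fell. Their fold changes were not tested against those of the heterotrimer. Kif9, a motor of the central apparatus of sperm flagella, stood at 46.3, 44.9, 39.5, 69.3 and 56.1 CPM in Ino80cKO libraries 1 to 5, against 91.4, 114, 195, 87.3 and 142 CPM in Ino80WT libraries 1 to 5. No Ino80cKO library reached the lowest Ino80WT library, and Ino80WT 3 and Ino80WT 5 were the highest. The fall was 2.46-fold, with a log2 fold change of -1.30 ± 0.22 (adjusted p = 0.0007). Kif6, needed for ependymal cilia in mouse, stood at 15.3, 12.6, 12.7, 17.9 and 17.7 CPM in Ino80cKO libraries 1 to 5, against 24.3, 29.0, 42.3, 22.2 and 33.6 CPM in Ino80WT libraries 1 to 5. It had the same separation of groups, with Ino80WT 3 again highest (log2 fold change -0.99 ± 0.17, adjusted p = 0.000802). Kif19a, a depolymerase that limits the length of motile cilia, was at 3.40 ± 0.971 CPM in Ino80cKO and 8.73 ± 4.56 CPM in Ino80WT, a 2.58-fold difference (log2 fold change -1.37 ± 0.32, adjusted p = 0.0044). Kif19a was also the most variable of the called members within Ino80WT, with single libraries from 5.24 to 16.1 CPM.

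Kif27, a relative of Kif7 whose partner Stk36 is needed for motile cilia, was at 50.4 ± 6.44 CPM in Ino80cKO and 87.7 ± 24.0 CPM in Ino80WT (log2 fold change -0.80 ± 0.17, adjusted p = 0.00219), without overlap. Kif24, a depolymerase at centrioles that restrains ciliogenesis together with Ccp110, was at 53.3 ± 4.85 CPM in Ino80cKO and 81.2 ± 17.1 CPM in Ino80WT (log2 fold change -0.61 ± 0.14, adjusted p = 0.00369). Its groups overlapped, because Ino80WT 1 stood at 53.7 CPM among Ino80cKO libraries at 48.5 to 59.5 CPM. Kif9, Kif19a and Kif4-ps were the 3 members lower by at least 2-fold, beside 7.72% of all tested genes.

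Kif7 and Kif17 did not pass the test. Kif7, which works at the ciliary tip in Hedgehog signalling, was at 19.6 ± 2.67 CPM in Ino80cKO and 17.6 ± 1.63 CPM in Ino80WT (log2 fold change 0.15 ± 0.11, adjusted p = 0.263, 95% interval -0.08 to 0.39). Kif17, a ciliary motor whose testis form carries a coactivator of the transcription factor CREM, was at 5.69 ± 0.849 CPM in Ino80cKO and 5.43 ± 0.741 CPM in Ino80WT (log2 fold change 0.07 ± 0.14, adjusted p = 0.719, 95% interval -0.24 to 0.37). Both intervals leave out a fall as large as that of Kif3a. Apart from the ratios among the heterotrimer subunits and that of Kif17 to Kif3b, no direct test between members was made.

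**Figure D3:**
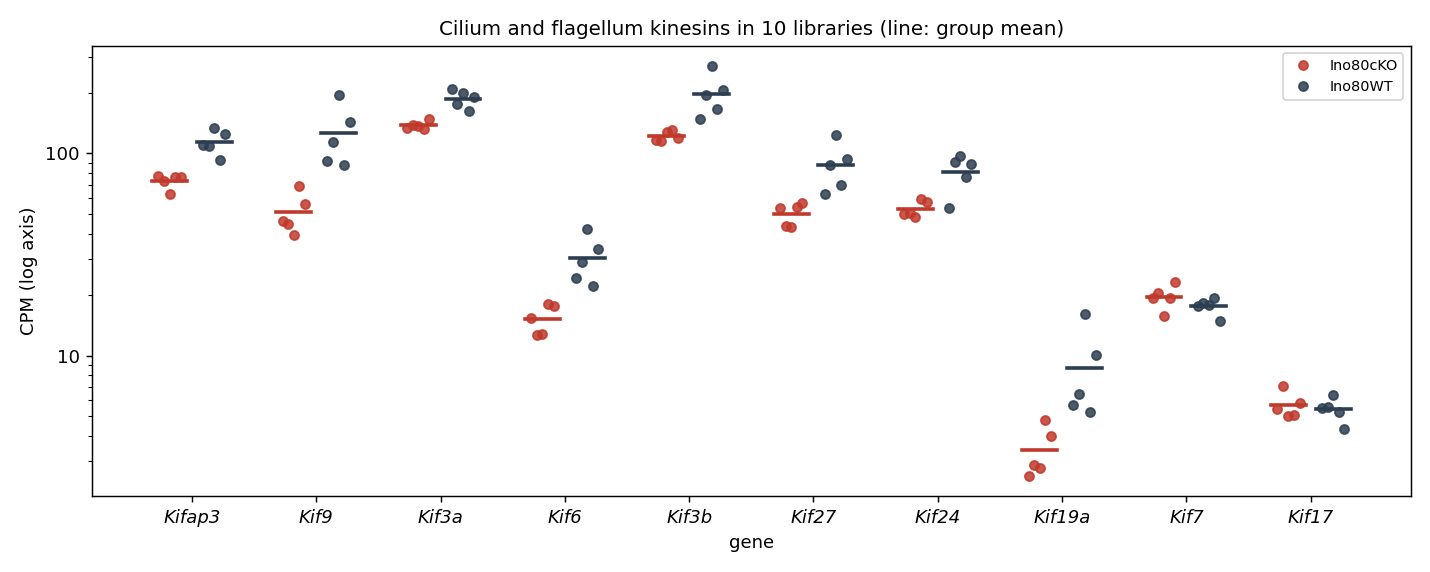
CPM (y axis, log scale) of the 10 cilium and flagellum kinesins in each library, with Ino80cKO points and mean line left of Ino80WT for each gene. The groups are separate for 7 genes and overlap for Kif24, Kif7 and Kif17.

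Markers of pachytene and later spermatocytes moved with these genes. All 16 listed markers were lower, beside 27.6% of all tested genes. The list was chosen with earlier results of these data known. Its summed level was 1553 to 2583 CPM in Ino80cKO and 4054 to 6900.0 CPM in Ino80WT, highest in Ino80WT 3 and lowest in Ino80cKO 3. Of the 16 members called lower, 13 were highest in Ino80WT 3, 11 were lowest in Ino80cKO 3 and 9 were both, where 46.1% of all 4220 lower genes were both. In bulk RNA fewer cells of a type and less RNA per cell cannot be told apart, and the part of cell make-up in the kinesin changes was not tested. Without Ino80WT 3 and Ino80cKO 3, a setting added after the data were seen, the same count of 8 cilium and flagellum members was lower.

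Partners of these motors in the testis and the cilium were lower for the most part. Of 14 tested genes on this list, 9 were lower and 2 higher, beside 27.6% and 18.3% of all tested genes. Their median log2 fold change was -0.72. Ccp110, the centriole cap that Kif24 binds, was at 289.8 ± 33.9 CPM in Ino80cKO and 612 ± 115 CPM in Ino80WT (log2 fold change -1.08 ± 0.13, adjusted p = 8.53e-05). Spef2, of the flagellar central apparatus, was at 6.65 ± 1.07 CPM in Ino80cKO and 19.4 ± 5.02 CPM in Ino80WT (log2 fold change -1.54 ± 0.18, adjusted p = 7.51e-05). Crem, a transcription factor of the spermatid programme, and Piwil1, a PIWI protein, changed by -1.17 and -1.50 on the log2 scale. Both stand on the pachytene list as well, as does Spag6, which was also lower. The higher genes were Gli1 and Gli3, effectors of the Hedgehog pathway in which Kif7 acts, at 0.50 ± 0.12 (adjusted p = 0.00592) and 0.44 ± 0.12 (adjusted p = 0.0111). They were named after their values were seen. Fhl5, the coactivator carried by Kif17, stood at 0.348 ± 0.175 CPM in Ino80cKO and 0.386 ± 0.216 CPM in Ino80WT and was not tested.

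Among the spindle and midbody kinesins, motors of spindle assembly and cytokinesis were lower in part. Kif15, which helps to hold the spindle poles apart, stood at 79.1, 82.2, 66.4, 77.1 and 89.2 CPM in Ino80cKO libraries 1 to 5, against 108, 110.1, 133, 101 and 133 CPM in Ino80WT libraries 1 to 5. The groups did not overlap and Ino80cKO 3 was lowest, with a log2 fold change of -0.57 ± 0.10 (adjusted p = 0.000725). Kif2a, a depolymerase at spindle poles, stood at 143, 143, 138, 149 and 167 CPM in Ino80cKO libraries 1 to 5, against 178, 202, 278, 189 and 226 CPM in Ino80WT libraries 1 to 5. It was lower in every Ino80cKO library (log2 fold change -0.54 ± 0.11, adjusted p = 0.00225), and Ino80WT 3 was far above the other controls. The opposite-strand gene Dimt1 covers 19.2% of its exons and had a log2 fold change of -0.19 (adjusted p = 0.0565). Whether counting used strand is not stated, and the part of opposite-strand reads in the counts of overlapping members was not tested.

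Kif20a, a midzone motor of cytokinesis, stood at 133, 128, 115, 131 and 154 CPM in Ino80cKO libraries 1 to 5, against 156, 178, 208, 156 and 174 CPM in Ino80WT libraries 1 to 5. The lowest Ino80WT library lay just above the highest Ino80cKO library, and the log2 fold change was -0.40 ± 0.10 (adjusted p = 0.00529). Cdc23, on the opposite strand, covers 29.3% of its exons and had a log2 fold change of -0.04 (adjusted p = 0.701). Kif2c, the centromeric depolymerase, stood at 63.5, 61.0, 51.9, 55.1 and 70.4 CPM in Ino80cKO libraries 1 to 5, against 76.0, 75.4, 87.8, 67.2 and 80.7 CPM in Ino80WT libraries 1 to 5. Its groups overlapped at Ino80cKO 5 and Ino80WT 4 (log2 fold change -0.36 ± 0.10, adjusted p = 0.00932).

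Kif11, the motor that slides spindle poles apart, was at 134 ± 13.0 CPM in Ino80cKO and 163 ± 14.7 CPM in Ino80WT (log2 fold change -0.28 ± 0.09, adjusted p = 0.0193), and Kif20b, a midbody motor, was at 88.5 ± 10.4 CPM in Ino80cKO and 113 ± 23.0 CPM in Ino80WT (log2 fold change -0.35 ± 0.13, adjusted p = 0.047). These calls were the least stable. Kif20b lost its call in 13 of 18 alternative settings, with adjusted p from 0.00547 to 0.248, and Kif11 in 6 of 18, with adjusted p from 0.0156 to 0.296. Kif2c lost its call in 2 of 18. Under library totals 3 members of the class were lower, and 3 were lower without Ino80WT 3 and Ino80cKO 3.

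Kif4, a chromosome-arm motor that works with Prc1 at the spindle midzone, was the single spindle member that rose. It stood at 54.5, 49.1, 46.5, 42.8 and 53.0 CPM in Ino80cKO libraries 1 to 5, against 35.4, 36.2, 34.7, 36.0 and 33.5 CPM in Ino80WT libraries 1 to 5. Every Ino80cKO library was above every Ino80WT library, as for 9.96% of all tested genes, and the log2 fold change was 0.49 ± 0.08 (adjusted p = 0.000385). Kif4 lies on the X chromosome (positions 100626065 to 100727271), where 49.6% of 548 tested genes rose and the median log2 fold change was 0.34. It is the only X-linked member of the family. Pdzd11, on the opposite strand, covers 15.1% of its exons and had a log2 fold change of 0.29 (adjusted p = 0.193).

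Kif4-ps, a transcribed pseudogene on chromosome 12 (positions 101145609 to 101149273), moved the other way. It stood at 9.55, 7.18, 6.22, 10.6 and 10.1 CPM in Ino80cKO libraries 1 to 5, against 20.8, 26.5, 38.4, 20.4 and 34.2 CPM in Ino80WT libraries 1 to 5. The groups were far apart, with Ino80WT 3 and Ino80WT 5 highest, a 3.21-fold fall and a log2 fold change of -1.68 ± 0.21 (adjusted p = 9.76e-05). Its annotated transcript aligned to that of Kif4 over 3704 positions at 79.9% identity, and reads placed on both copies stand in a separate row of the files, so part of either level may be missing.

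**Figure D4:**
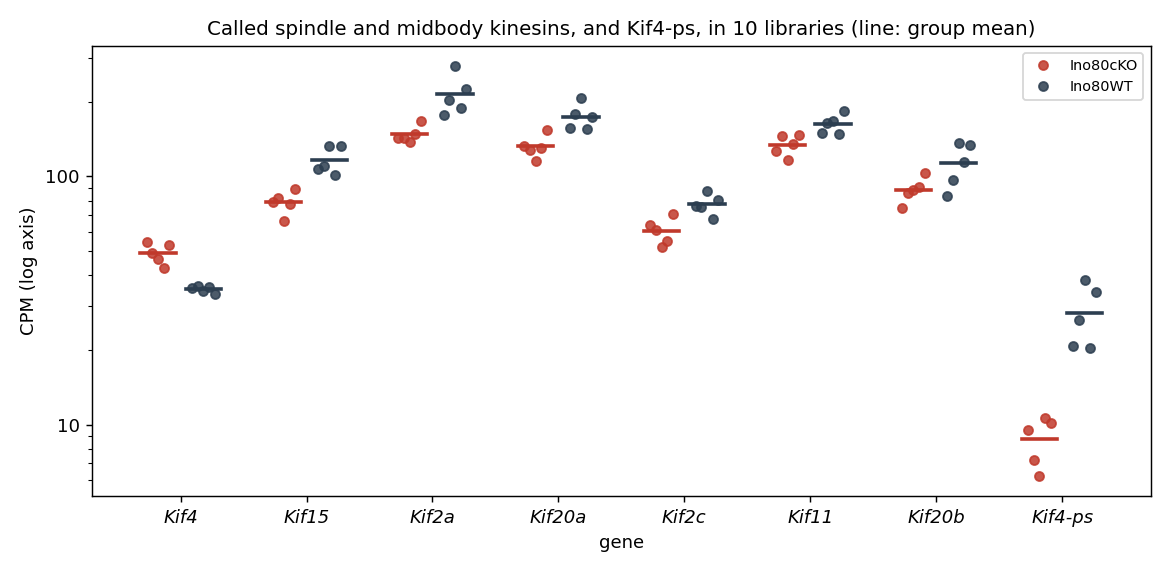
CPM (y axis, log scale) of the 7 called spindle and midbody kinesins and of Kif4-ps in each library, with Ino80cKO points and mean line left of Ino80WT for each gene. Kif4 is higher in Ino80cKO, and Kif4-ps and the other genes are lower, with overlap for Kif2c and Kif20b.

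The remaining 7 tested spindle and midbody members had no call, with adjusted p from 0.0992 to 0.967. They were Kif23, which forms centralspindlin with Racgap1 (log2 fold change 0.11), the chromosome-bound motor Kif22 (0.06), Kif18b (0.04), the chromosome alignment motor Kif18a (-0.08) and the midbody motor Kif14 (-0.11). Kifc1, a minus-end motor of spindle poles that also acts in spermatids, was at 13.1 ± 1.32 CPM in Ino80cKO and 13.1 ± 2.19 CPM in Ino80WT (log2 fold change -0.01). Its near-copy Kifc5b, 96.8% identical over 2312 aligned positions, had -0.25. Reads that fit both copies are not in these counts, so both levels are uncertain. The widest limits of the 95% intervals of these 7 genes were -0.52 and 0.29 on the log2 scale. Kif23 was within narrow ranges, at 112 to 118 CPM in Ino80cKO and 103 to 115 CPM in Ino80WT.

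Of 17 spindle and midzone partners, 8 were lower and 1 higher, beside 27.6% and 18.3% of all tested genes. Their median log2 fold change was -0.34. Prc1, the midzone bundler that recruits Kif4, was at 136 ± 14.8 CPM in Ino80cKO and 231 ± 36.5 CPM in Ino80WT (log2 fold change -0.76 ± 0.11, adjusted p = 0.000253), opposite in direction to Kif4. Birc5, of the chromosomal passenger complex, was at 30.5 ± 2.15 CPM in Ino80cKO and 48.2 ± 5.94 CPM in Ino80WT (log2 fold change -0.66 ± 0.09, adjusted p = 0.00018). The kinases Aurka, which acts at spindle poles, and Aurkc, which is restricted largely to germ cells, had log2 fold changes of -0.86 ± 0.18 (adjusted p = 0.00223) and -1.18 ± 0.22 (adjusted p = 0.00124). Cenpe, a kinesin of kinetochores without a Kif symbol, was at 134 ± 18.8 CPM in Ino80cKO and 144 ± 27.8 CPM in Ino80WT (log2 fold change -0.10, adjusted p = 0.539), and was named outside the rule. Of 12 general division markers, 7 were lower and 1, Mki67, was higher, against the same shares of all tested genes. Their summed levels were 1909 to 2219 CPM in Ino80cKO and 2086 to 2464 CPM in Ino80WT. Aurka and Birc5, both lower, and Plk1, without a call, stand on both this list and that of the partners.

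Of the 4 members that rose, 3 were transport kinesins, and these 3 of 16 tested lie near the 18.3% of all tested genes that were higher. Kif1a, which carries synaptic vesicle precursors in neurons, stood at 87.3, 96.3, 109, 79.0 and 83.0 CPM in Ino80cKO libraries 1 to 5, against 50.5, 67.9, 49.5, 60.9 and 54.4 CPM in Ino80WT libraries 1 to 5. All Ino80cKO libraries were above all Ino80WT libraries, with Ino80cKO 3 highest, a 1.60-fold rise and a log2 fold change of 0.68 ± 0.11 (adjusted p = 0.000401). Kif5c, a heavy chain of conventional kinesin, stood at 35.2, 57.3, 52.1, 36.5 and 49.0 CPM in Ino80cKO libraries 1 to 5, against 32.6, 39.9, 32.1, 32.8 and 31.2 CPM in Ino80WT libraries 1 to 5. Ino80cKO 1 and Ino80cKO 4 lay below Ino80WT 2, so the groups overlapped (log2 fold change 0.45 ± 0.14, adjusted p = 0.0171). Kif21a, a motor that restrains microtubule growth, stood at 216, 235, 318, 226 and 163 CPM in Ino80cKO libraries 1 to 5, against 145, 183, 122, 194 and 174 CPM in Ino80WT libraries 1 to 5. Its Ino80cKO libraries spread from 163 to 318 CPM, with Ino80cKO 5 inside the Ino80WT range (log2 fold change 0.50 ± 0.17, adjusted p = 0.028), and its call was lost in 5 of 18 alternative settings.

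Kifc3, a minus-end motor linked to cell junctions, was the single transport member that fell. It stood at 16.7, 15.3, 14.1, 18.9 and 20.1 CPM in Ino80cKO libraries 1 to 5, against 28.8, 33.8, 45.4, 26.9 and 30.6 CPM in Ino80WT libraries 1 to 5. The groups did not overlap and the fall was 1.95-fold, with a log2 fold change of -0.96 ± 0.15 (adjusted p = 0.000293). Its pattern over libraries, highest in Ino80WT 3 and lowest in Ino80cKO 3, was that of the pachytene list.

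Kif5b, the most abundant member by CPM, stood at 372, 364, 409, 339.6 and 309 CPM in Ino80cKO libraries 1 to 5, against 323, 307, 239, 301 and 336 CPM in Ino80WT libraries 1 to 5. Its log2 fold change was 0.25 ± 0.10 (adjusted p = 0.0586), just outside the threshold, as were those of Kif1c (log2 fold change 0.18 ± 0.07, adjusted p = 0.0533) and Kif13a (log2 fold change 0.28 ± 0.11, adjusted p = 0.0575). The other members without a call were Kif3c (0.20), Kif26a (0.17), Kif1b (0.16), Kif13b (0.16), Kif21b (0.04), Kif5a (-0.01), Kifc2 (-0.02), Kif16b (-0.04) and Kif26b (-0.18) on the log2 scale. Kif5a is a neuronal heavy chain, Kif13a and Kif16b serve endosomes, and Kif26a and Kif26b lack ATPase activity. The number of transport members called higher, 3 here, moved with the settings. It was 6 with DESeq2, with its size factors in edgeR and without the ribosomal RNA precursor Rn45s, 10 under library totals, 7 without Ino80WT 1 and 2, and 1 without Ino80WT 3 and Ino80cKO 3.

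**Figure D5:**
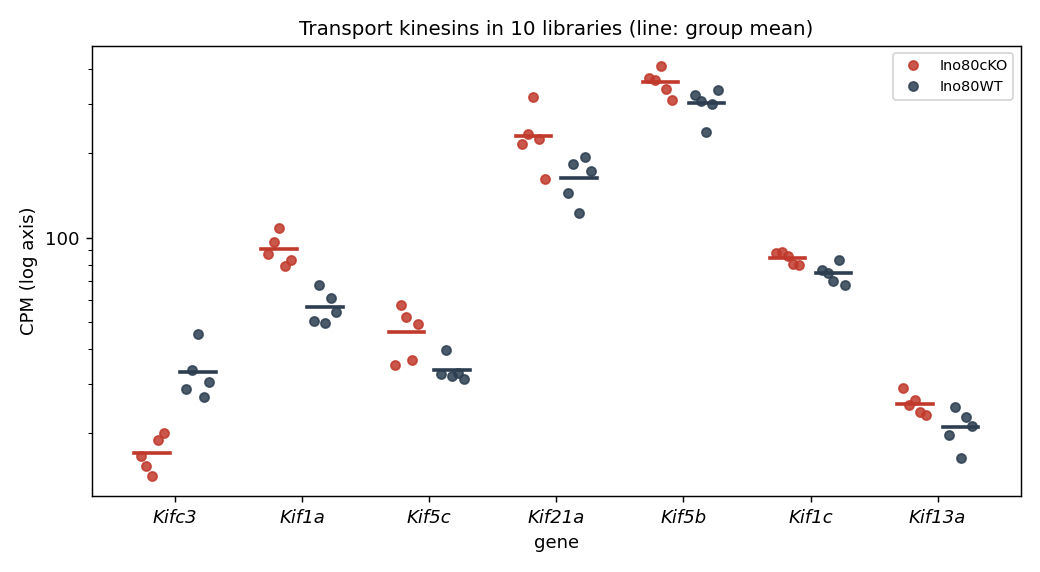
CPM (y axis, log scale) of the 4 called transport kinesins and of Kif5b, Kif1c and Kif13a, which lay just outside the threshold, in each library, with Ino80cKO left of Ino80WT. Kifc3 is lower in Ino80cKO without overlap, Kif1a is higher without overlap, and the other genes overlap.

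Somatic markers stood beside these rises. Of 8 Sertoli cell markers, 5 were higher, where 18.3% of all tested genes were higher. Their summed levels were 3591 to 4698 CPM in Ino80cKO and 2513 to 3751 CPM in Ino80WT, highest in Ino80cKO 3 and lowest in Ino80WT 3. Clu made up most of each sum, and every listed Sertoli marker except Amh had the same highest and lowest library. Kif1a and Kif21a were also highest in Ino80cKO 3 and lowest in Ino80WT 3, while Kif5c was highest in Ino80cKO 2 and lowest in Ino80WT 5. The share of all higher genes with the first pattern was not counted. Of 9 spermatogonial markers, 3 were higher by the test, with summed levels of 688 to 779 CPM in Ino80cKO and 515 to 687 CPM in Ino80WT. Leydig and peritubular lists had 2 of 4 and 1 of 5 tested markers higher. Endothelial markers summed to 46.2 to 80.3 CPM in Ino80cKO and 41.7 to 65.5 CPM in Ino80WT, and red blood cell markers summed to 0.691 to 2.62 CPM in Ino80cKO and 1.32 to 3.10 CPM in Ino80WT. Leukocyte markers summed to 37.1 to 63.6 CPM in Ino80cKO and 12.9 to 23.6 CPM in Ino80WT. The part of these cells in the transport kinesin levels was not tested.

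Light chains and cargo adaptors of the transport motors changed in both directions. Of 18 genes, 6 (33.3%) were lower and 3 (16.7%) higher, near the 27.6% and 18.3% of all tested genes. Their median log2 fold change was -0.08. Mapk8ip2, a scaffold that couples cargo to conventional kinesin, was at 15.8 ± 4.23 CPM in Ino80cKO and 45.1 ± 16.5 CPM in Ino80WT (log2 fold change -1.51 ± 0.24, adjusted p = 0.000448), and its relative Mapk8ip1 was at 15.7 ± 2.23 CPM in Ino80cKO and 23.0 ± 2.79 CPM in Ino80WT (log2 fold change -0.56 ± 0.11, adjusted p = 0.00206). Madd, an adaptor of Kif1a and Kif1b, and Hap1, a partner of conventional kinesin, had log2 fold changes of -0.51 ± 0.10 (adjusted p = 0.00121) and -0.86 ± 0.18 (adjusted p = 0.00252). The 3 higher genes, named outside the rule, were the mitochondrial adaptors Trak1 (log2 fold change 0.40 ± 0.09, adjusted p = 0.0026) and Trak2 (log2 fold change 0.34 ± 0.08, adjusted p = 0.00468), and Fez2 (log2 fold change 0.34 ± 0.11, adjusted p = 0.0217). The light chains Klc1, Klc2, Klc3 and Klc4 had no call, at 0.08, -0.17, 0.13 and 0.17 on the log2 scale.

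Cytoplasmic dynein, the motor that moves toward microtubule minus ends against most kinesins, had 11 lower and 1 higher among 26 genes, dynactin included. Of all tested genes, 27.6% were lower and 18.3% higher. The median log2 fold change of the 26 genes was -0.11. Dynlrb2, a light chain found in cilia and germ cells, was at 6.74 ± 2.09 CPM in Ino80cKO and 21.0 ± 2.74 CPM in Ino80WT (log2 fold change -1.64 ± 0.19, adjusted p = 7.35e-05). Dync2li1, of the dynein that returns intraflagellar cargo, was at 41.0 ± 4.47 CPM in Ino80cKO and 69.8 ± 6.11 CPM in Ino80WT (log2 fold change -0.77 ± 0.09, adjusted p = 8.37e-05). The intermediate chain Dync1i2 and the dynactin subunit Dctn2 had log2 fold changes of -0.53 ± 0.07 (adjusted p = 0.000155) and -0.64 ± 0.11 (adjusted p = 0.000684). The heavy chain Dync1h1, named outside the rule, was at 1006 ± 74.8 CPM in Ino80cKO and 1087 ± 279 CPM in Ino80WT (log2 fold change -0.11, adjusted p = 0.594).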

How the data were processed

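PolyA RNA of 10 testis cell libraries, 5 labelled Ino80cKO and 5 labelled Ino80WT, was analysed from whole-number counts per gene that the authors deposited, 1 file per library. TopHat2, HTSeq, DESeq2 and the mm10 build appear in the submitters' processing notes, with no version or role. The sources used here state neither the annotation nor the strand setting. Rows that name no gene held 35.5% to 44.0% of each file's counts and were left out. One of these rows holds reads with non-unique alignments, per the file headers, so near-copies are uncertain.

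The test was that of edgeR 4.0.16 (R 4.3.3): filterByExpr on genotype (minimum count 10, minimum total 15), TMM factors, a robust quasi-likelihood fit with genotype as its only term, and Benjamini-Hochberg adjustment over 15265 genes. Each SE was obtained as |log2 fold change| over the square root of the F statistic. The model was tested on simulated data. Exon lengths came from GENCODE and starts from RefSeq GRCm38.p6. DESeq2 1.42.0 was an alternative. Shares and counts are given without an error, and libraries varied by more than counting error. A floor of 3 counts is 0.127 to 0.179 CPM.

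The members, classes, lists and tests were chosen with earlier results of these data known. Per-library values were given for up to 5 called members of each class with the smallest adjusted p, for the most abundant member of each class (Kif4-ps being a class of its own), and up to 4 called genes with the smallest adjusted p of each partner list were named. Other partner genes (Gli1, Gli3, Spag6, Trak1, Trak2, Fez2, Cenpe, Plk1, Dync1h1, Fhl5 and the light chains) were named after their values were seen. No libraries were duplicates (lowest chi-square per degree of freedom 8.93). The labels give no batch. One overlapping gene is not reported here.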

Additional observations from a re-analysis of the deposited data

Results flagged for a closer look

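In 5 of 82 groups of 5 libraries checked, 1 library stood far from the rest of its group by Dixon's gap test, and chance alone flags about 1 in 20 groups. In Ino80cKO, Kifap3 was at 62.7 CPM in library 3, below 73.3 to 77.6 CPM in the others. In Ino80WT library 1, Kif13b was at 44.1 CPM against 73.3 to 78.1 CPM in the other Ino80WT libraries, Kif14 at 26.1 CPM against 37.6 to 41.1 CPM, and Kif1b at 127 CPM against 170.2 to 184 CPM. Ino80WT 1 also held the most Rn45s counts, 7.08% of its gene counts. Kif5c was at 39.9 CPM in Ino80WT 2, above 31.2 to 32.8 CPM in the other Ino80WT libraries.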

How the results depend on the processing

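The cilium and flagellum class had 8 lower members under every alternative fit, and 7 with Kif2a, Kif24 and Kif3c placed in other classes. Of the 20 called members, 15 passed under all 18 alternative settings for genes. The family's higher count was 8 with DESeq2, 7 with its size factors, 7 without Rn45s, 13 under library totals, 9 without Ino80WT 1 and 2, 2 without Ino80WT 3 and Ino80cKO 3 (chosen after seeing the data), 2 at adjusted p below 0.01 and 3 to 7 leaving out 1 library, with 7 without Ino80WT 1 or Ino80cKO 5. The transport higher count was 6, 6, 6, 10, 7, 1 and 1 under the same settings and 2 to 6 leaving out 1 library, with 6 without Ino80cKO 5 and 5 without Ino80WT 1. In the spindle class 2 were higher with DESeq2, under library totals and without Ino80WT 1 and 2, and 1 to 2 leaving out 1 library. There 3 were lower under library totals and 3 without Ino80WT 3 and Ino80cKO 3. Library totals gave 1 higher cilium and flagellum member. They put the mitotic median log2 fold change of the spindle class at -0.00797 and the transport median log2 fold change at 0.34. With Kif2a, Kif24 and Kif3c placed in other classes, 2 transport members were lower. The cause was not tested.

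Signs turned for members without a call, given here as log2 fold changes. With library totals the values were Kif14 0.062, Kif16b 0.14, Kif18a 0.098, Kif5a 0.17, Kifc1 0.17 and Kifc2 0.15. DESeq2 gave Kif5a 0.022, Kifc1 0.024 and Kifc2 0.0078, and its size factors gave Kif5a 0.024, Kifc1 0.025 and Kifc2 0.0060. Without the count filter they were Kif5a 0.016 and Kifc1 0.017, and without Rn45s Kif5a 0.018 and Kifc1 0.021. Without Ino80WT 1 and 2 they were Kif5a 0.052, Kifc1 0.057 and Kifc2 0.12. Without Ino80WT 3 and Ino80cKO 3 they were Kif16b 0.030, Kif21b -0.017, Kif26b 0.054, Kif5a 0.070 and Kifc1 0.15. Leaving out 1 library gave Ino80 -0.031 to 0.074, Kif16b -0.071 to 0.017, Kif17 -0.026 to 0.13, Kif18a -0.14 to 0.011, Kif21b -0.0069 to 0.11, Kif22 -0.022 to 0.16, Kif26b -0.42 to 0.012, Kif5a -0.063 to 0.048, Kifc1 -0.066 to 0.084 and Kifc2 -0.088 to 0.036. Deviations of same-numbered libraries correlated at -0.47 to 0.20, which shows no steady pairing by number but cannot exclude one. A block on replicate number gave 3 higher and 16 lower members, with Kif21a at adjusted p = 0.068 and Kifc1 at a log2 fold change of 0.0017, and not every library correlated best with its own number. Low counts limit Kif26b, Kif19a and Kif17 most.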
